A study of Mus musculus with 11 samples.

Results

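The sites described here are the places on the autosomes where quiescent satellite cells (QSCs) from old mice carried a peak of H3K4me3 and a peak of H3K27me3, and where neither peak was found in QSCs from young mice. A site was an H3K4me3 peak of old QSCs that had no base in common with the H3K4me3 peaks of young QSCs and at least 1 bp in common with an H3K27me3 peak of old QSCs, which itself touched no H3K27me3 peak of young QSCs. This rule found 2054 sites among the 23580 autosomal H3K4me3 peaks of old QSCs, or 8.71%. The sites were covered by 2053 H3K27me3 peaks, which made 2056 pairs of peaks. The sites were chosen by the 4 QSC lists of H3K4me3 and H3K27me3, so values from those lists, the overlap of the pair of old peaks included, are given as a description.

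Satellite cells are the stem cells of skeletal muscle. They rest between the muscle fiber and its basal lamina until injury activates them, after which they proliferate and give rise to new muscle. H3K4me3 is typical of active and poised promoters, and H3K36me3 is laid down over the bodies of genes as RNA polymerase II elongates. H3K27me3 is written by Polycomb repressive complex 2 and accompanies silencing. Regions with H3K4me3 and H3K27me3 together are called bivalent and are best known at the promoters of developmental regulators in embryonic stem cells, where the genes are held at low expression. In ChIP-seq of a population of cells, peaks of both marks at a place can come from the same nucleosomes, from the 2 alleles or from different cells, and these cannot be told apart here.

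All cells came from the hindlimb muscle of male C57BL/6 mice and were sorted as VCAM+, CD31-, CD45- and Sca1-. Young mice were 2 to 3 months old, and old mice were 22 to 24 months old. QSCs were taken from uninjured muscle. Activated satellite cells (ASCs) came from young mice, and the sample labels describe them as sorted QSCs that had been plated for 3 days, whereas the study's text speaks of activation in the animal. H3K4me3, H3K27me3 and H3K36me3 were profiled in young QSCs and young ASCs, and H3K4me3 and H3K27me3 in old QSCs. The samples include no H3K36me3 library of old QSCs. Cells were frozen until enough had been collected for a reaction, so each library can hold cells of several animals.

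There was 1 ChIP library per cell state and mark and 1 input library per cell state, without replicates. A difference between young and old sites is thus a difference between single libraries, from which age, depth and the quality of the immunoprecipitation cannot be separated. No test was made between cell states, and the 95% intervals given with shares and medians cover counting error over sites only. The 8 peak lists held between 11658 and 42880 peaks, 212879 in all. Their read depth is unknown. No gene, promoter or sequence is given for the sites, because the lists are on the mm9 assembly and the gene and promoter tables at hand are not. For the same reason the identity of the sorted cells could not be checked at marker genes.

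The score of a peak is the authors' MACS score, which gets higher as the p-value of the peak gets smaller and starts at 50 in these lists. H3K4me3 at the sites was weak on this scale. The median score was 73.3 (95% interval 71.7 to 74.9), the middle 50% of the sites lay between 59.6 and 96.8, and the strongest site had 285.99. Only 461 of the 2054 sites, 22.4% (20.7% to 24.3%), had an H3K4me3 score of at least 100, compared with 75.7% of all autosomal H3K4me3 peaks of old QSCs. The old-only H3K4me3 peaks without an old-only H3K27me3 peak (n = 2428) were weak as well, with a median score of 67.0, whereas the peaks with both marks at both ages (n = 2655) had a median of 924.

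H3K27me3 at the sites scored higher than in its list as a whole. The median H3K27me3 score was 111 (108 to 114) over 2053 peaks, and 57.6% (55.4% to 59.7%) had a score of at least 100, compared with 43.6% of all autosomal H3K27me3 peaks of old QSCs. Old-only H3K27me3 peaks that lay away from H3K4me3 (n = 8576) had a median score of 73.2. In 77.3% (75.4% to 79.0%) of the pairs the H3K27me3 peak had the higher score of the pair, whereas this held for 22.1% of the 2917 pairs with both marks at both ages. It also held for 88.0% (83.8% to 91.2%) of the 299 pairs of an old-only H3K4me3 peak with an H3K27me3 peak of both ages. Scores depend on the depth of each library and its input, and those of a pair come from different lists, so these shares do not compare the amounts of the marks.

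The peaks of both marks were narrow and of nearly the same width. The median H3K4me3 width was 926 bp (906 to 940), with a range from 389 to 4761 bp, and the median H3K27me3 width was 948 bp (932 to 965). All autosomal H3K4me3 peaks of old QSCs had a median of 1467 bp, and those with both marks at both ages had 1559 bp. Among old-only H3K27me3 peaks without H3K4me3 the median was 733 bp. The H3K27me3 peak was the wider of the pair in 54.4% (52.3% to 56.6%) of the pairs.

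The rule asked for a single shared base, and the pairs shared nearly all of theirs. The median overlap was 829 bp (817 to 842), with the middle 50% between 672 and 1066 bp. This was 99.7% (99.4% to 99.9%) of the shorter peak. Shared bases made up a median of 82.7% (82.1% to 83.2%) of the stretch that both peaks covered together, and in 59.0% (56.8% to 61.1%) of the pairs they made up over 80% of it. In 2 of the 2056 pairs the overlap was under 50% of the shorter peak.

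The edges of the pair lay close together on both sides. The median distance was 81 bp (77 to 84) between the starts and 81 bp (75 to 86) between the ends, and the centres were a median of 63.5 bp (61 to 67) apart. Both edges lay within 100 bp of each other in 687 pairs, 33.4% (31.4% to 35.5%), compared with 19.9% of all 7024 pairs of overlapping H3K4me3 and H3K27me3 peaks on the autosomes of old QSCs. The H3K27me3 peak started earlier in 54.2% (52.1% to 56.4%) and ended later in 48.9% (46.7% to 51.0%) of the pairs, so neither mark reached beyond the other on one side throughout. Exactly the same start occurred in 10 pairs and exactly the same end in 7, so the edges were close without being copies of each other. One peak lay wholly inside the other in 47.8% (45.7% to 50.0%) of the pairs.

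**Figure D1:**
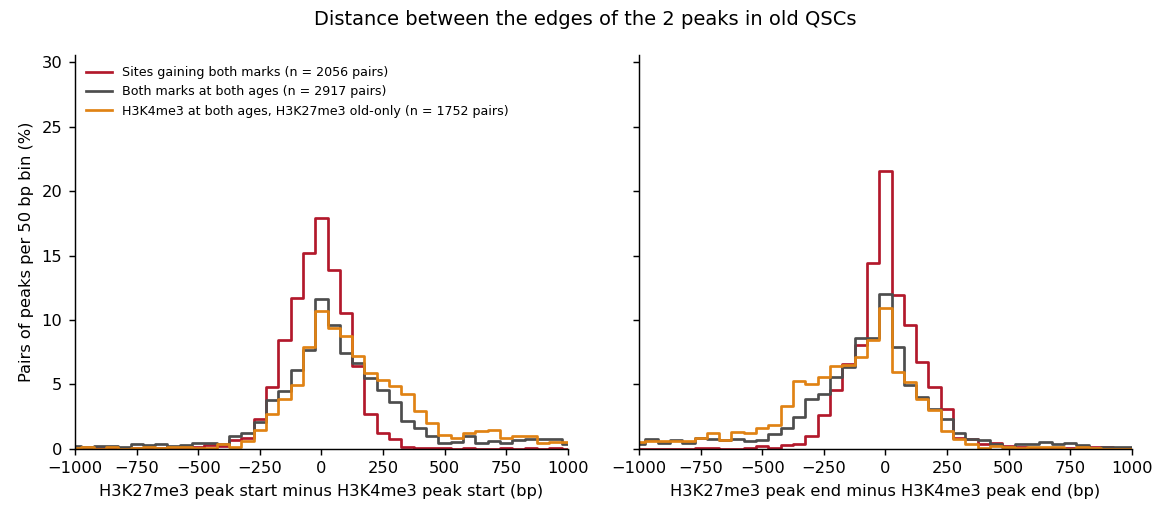
Distances in bp from the H3K4me3 edge to the H3K27me3 edge of each pair in old QSCs, for starts (left) and ends (right), as the percent of pairs in each 50 bp bin; lines show the sites gaining both marks (2056 pairs), sites with both marks at both ages (2917 pairs) and H3K4me3 of both ages with old-only H3K27me3 (1752 pairs). The line of the sites is the highest at 0 on both sides and stays near 0% beyond 500 bp, with a median distance of 81 bp for each edge.

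Other pairs of the same marks in old QSCs were less closely matched in joint stretch, centres and edges. Where both marks were present at both ages, the shared part of the joint stretch was 74.3% (73.1% to 75.6%), the centres were 125.5 bp apart and both edges lay within 100 bp in 13.5% of 2917 pairs. Where H3K4me3 was present at both ages and H3K27me3 in old QSCs only, these values were 68.9% (67.3% to 70.0%), 99 bp and 14.6% over 1752 pairs. The 299 pairs of an old-only H3K4me3 peak with an H3K27me3 peak of both ages had 73.1%, 83 bp and 20.4%. The interval of the sites for the shared part lay above those of the other large classes. By the share of the shorter peak the sites were not ahead, since each of these other classes had a median of 100%. One peak lay wholly inside the other in 60.6%, 67.7% and 57.5% of their pairs, in the same order, which was more often than at the sites.

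The classes differed in width, and narrow peaks leave less room for distant edges, so the comparison was repeated among narrow peaks, with a limit set once the widths were known. With both peaks under 1.5 kb, the shared part was 82.1% (81.5% to 82.8%) at 1764 pairs of the sites and 79.3% (77.7% to 80.1%) at 1075 pairs with both marks at both ages. In the same width range both edges lay within 100 bp in 35.4% (33.2% to 37.7%) and 21.5% (19.1% to 24.0%) of these pairs. Their centres were 61 bp and 76 bp apart, so the classes were closer in this than without the limit. H3K4me3 peaks of both ages with old-only H3K27me3 had 74.6%, 19.5% and 77.5 bp (1061 pairs). Old-only H3K4me3 peaks with H3K27me3 of both ages had 75.7%, 25.1% and 73 bp (239 pairs). The limit did not make the widths equal. The median H3K4me3 and H3K27me3 widths were still 878 bp and 905 bp at the sites, and 1145 bp and 1048 bp where both marks were present at both ages. In the other cell states, overlapping H3K4me3 and H3K27me3 peaks under 1.5 kb shared a median of 71.9% of the joint stretch in young QSCs (695 pairs) and 67.9% in young ASCs (1533 pairs). The sites had the largest shared part of all these sets in this width range.

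The pair of peaks also resembled each other in width and, less so, in score. Across the 2056 pairs the Spearman correlation was 0.76 for width and 0.27 for score. At sites with both marks at both ages it was 0.37 and 0.09 (n = 2917), and at H3K4me3 peaks of both ages with old-only H3K27me3 it was 0.16 and -0.24 (n = 1752). These are descriptions across sites of 1 pair of libraries. Overlap itself ties the widths of a pair together, and the libraries share their cell state. Which input library each list was called against is not given in the sources used here.

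Of the 4482 autosomal H3K4me3 peaks of old QSCs without a young counterpart, 19% of all in the list, the sites made up 45.8% (44.4% to 47.3%). The same rule turned around gave far fewer places. Among the 4710 young H3K4me3 peaks without an old counterpart, 94, or 2.00% (1.63% to 2.44%), lay on an H3K27me3 peak found in young QSCs only. Peaks of ASCs absent from young QSCs gave 252 of 13399 (1.88%), and peaks of young QSCs absent from ASCs gave 59 of 5154 (1.14%). Set against ASCs in place of young QSCs, old QSCs had 1167 such places among 5237 (22.3%), while ASCs set against old QSCs had 240 among 13761 (1.74%). High shares were thus found in both comparisons in which old QSCs supplied the new peaks. The few mirrored places had less closely matched pairs, with a shared part of 53.0% for those gained in ASCs (255 pairs) and 43.5% for those of young QSCs only (101 pairs). These values are for pairs of any width. Over all overlapping pairs, the median H3K27me3 width was 2175 bp in young QSCs and 1890 bp in ASCs, compared with 949 bp over the pairs of the sites.

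The number of sites depended on the score limit. With a score of at least 100 asked of the old QSC peaks, 333 sites remained, and with that limit on all lists there were 481. The limit on all lists also removed weaker young QSC peaks, so some of these 481 places had a young QSC peak with a score under 100. The matching of the pair was the same at these limits, with centres 61 bp and 63.5 bp apart and 99.5% and 99.6% of the shorter peak shared.

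The sites with the strongest pair of peaks, ranked by the lower score of the pair, ranged in H3K4me3 width from 1003 to 4116 bp. The first lay at chr5:16749854-16753369 (mm9), with an H3K4me3 peak of 3516 bp and score 285.99, and its H3K27me3 peak of 3278 bp and score 282.79 lay wholly within it. The second, at chr2:21923403-21927518, had an H3K4me3 peak of 4116 bp and score 248.93 inside an H3K27me3 peak of 5671 bp and score 490.28. The third, at chr13:84628872-84630460, shared 1547 bp between peaks of 1589 bp and 1738 bp. The fourth (chr10:15354607-15355870) and the fifth (chr11:47663897-47664899) shared 1189 bp and 968 bp. All 5 of these sites overlapped an H3K27me3 peak of young ASCs, none overlapped H3K4me3 or H3K36me3 of young ASCs, and those on chromosomes 5, 2 and 10 overlapped H3K36me3 of young QSCs. The most bases, 4687, were shared at chr7:79795334-79800094, where an H3K4me3 peak of score 100.81 met an H3K27me3 peak of score 353.62. The next most were shared at the sites on chromosomes 2 and 5 already described.

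Few pairs sat at the limit of the rule. The fewest shared bases were 2, at chr11:105868938-105869892, followed by 20 at chr1:193758177-193758684 and 356 at chr1:103233285-103233836. Between 20 and 356 shared bases there was no pair. Just outside the rule, the nearest old-only H3K4me3 peaks stopped 11 bp short of an old-only H3K27me3 peak at chr12:4808781-4809490, 12 bp short at chr4:143568085-143568892 and 28 bp short at chr4:123527641-123528170. Asking for an overlap of 50% of the shorter peak throughout gave 2066 sites.

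The 4 lists that the rule did not use showed what else was found at these places. H3K36me3 of young QSCs overlapped 504 sites, 24.5% (22.7% to 26.4%), compared with 10.9% of all autosomal H3K4me3 peaks of old QSCs. H3K36me3 was thus listed in young QSCs at sites whose H3K4me3 and H3K27me3 peaks each met no young QSC peak of the same mark. The share was 13.3% (12.0% to 14.7%) at the other old-only H3K4me3 peaks, 20.9% at H3K4me3 peaks of both ages with old-only H3K27me3, and 11.5% (10.8% to 12.2%) at old-only H3K27me3 peaks without H3K4me3. With a score of at least 100 asked of all lists, places with a weaker young QSC peak also counted as sites. The share was then 9.36% (7.07% to 12.3%) at the sites and 5.50% (4.34% to 6.93%) at the other old-only H3K4me3 peaks. The order of both classes was kept while their intervals nearly met. Among weak peaks the H3K4me3 peaks of both ages with old-only H3K27me3 had the higher shares. When peaks were grouped at H3K4me3 scores of 59.6, 73.3 and 96.8, that class had 49.5%, 31.8% and 44.2% in the lower 3 groups (111, 132 and 165 peaks), compared with 17.4%, 22.4% and 25.5% of the sites, and 14.2% compared with 32.9% in the highest.

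In young ASCs the sites carried the repressive mark far more often than the active one. H3K27me3 of ASCs overlapped 1033 sites, 50.3% (48.1% to 52.5%), compared with 29.4% of all old QSC H3K4me3 peaks. H3K4me3 of ASCs overlapped 95 sites, 4.63% (3.80% to 5.62%), compared with 77.8%. H3K36me3 of ASCs overlapped 100 sites, 4.87% (4.02% to 5.89%), compared with 6.11%. Both H3K4me3 and H3K27me3 were called in ASCs at 52 sites, 2.53% (1.94% to 3.31%), compared with 20.6%. ASC H3K27me3 without ASC H3K4me3 was found at 981 sites, 47.8% (45.6% to 49.9%), compared with 8.74% of all old QSC H3K4me3 peaks. ASC H3K4me3 without ASC H3K27me3 was found at 43 sites, 2.09% (1.56% to 2.81%), compared with 57.2%. The pairing of both marks listed in old QSCs was rarely listed in ASCs at the same places.

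The balance of ASC marks varied between the other classes. At the other old-only H3K4me3 peaks, ASC H3K4me3 was found at 38.8% (36.8% to 40.7%) and ASC H3K27me3 at 21.7% (20.2% to 23.4%), the reverse of the order at the sites. At old-only H3K27me3 peaks without H3K4me3, ASC H3K4me3 was found at 2.44% (2.13% to 2.79%) and ASC H3K27me3 at 36.3% (35.3% to 37.3%), the same order as at the sites. At H3K4me3 peaks of both ages with old-only H3K27me3 the shares were close, at 66.3% and 67.0%. Where both marks were present at both ages, 94.2% overlapped ASC H3K4me3 and 97.8% overlapped ASC H3K27me3. Of all autosomal H3K27me3 peaks of old QSCs, 26.2% overlapped ASC H3K4me3 and 57.1% overlapped ASC H3K27me3, the latter above the share of the sites. By the balance of ASC H3K4me3 and ASC H3K27me3 the sites stood nearer to H3K27me3 peaks without H3K4me3 than to other H3K4me3 peaks. By the share with neither ASC mark, 47.6%, they stood nearer to the other old-only H3K4me3 peaks (46.7%). Old-only H3K27me3 peaks without H3K4me3 had 62.3%.

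**Figure D2:**
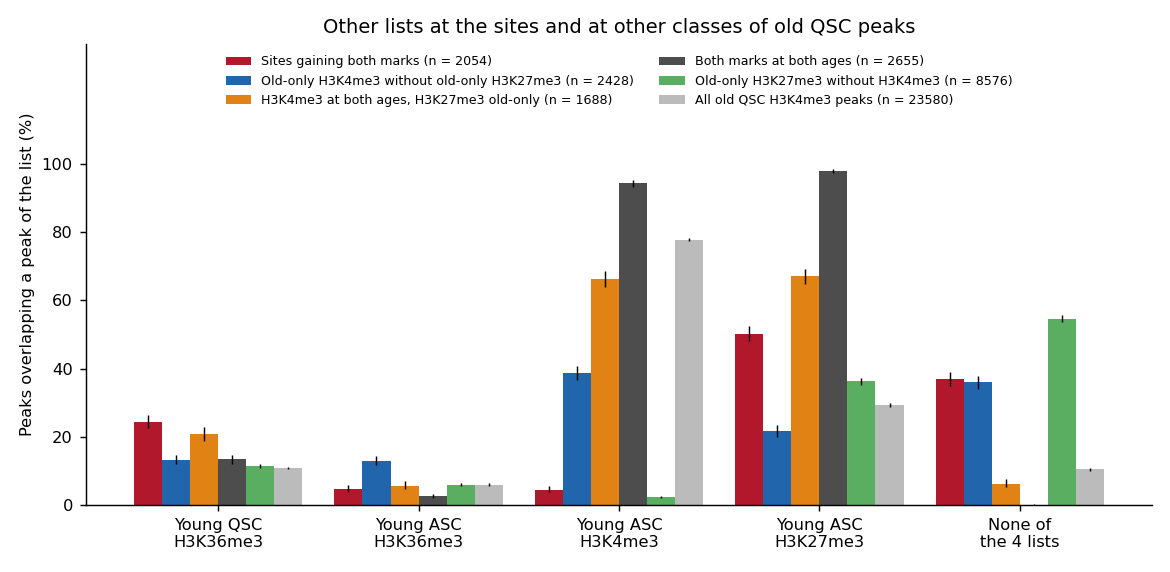
Percent of peaks of each class that overlapped a peak of the young QSC H3K36me3, young ASC H3K36me3, H3K4me3 or H3K27me3 list, or of none of them; bars start at 0, and lines are Wilson 95% intervals over peaks. The sites gaining both marks reach 24.5% for young QSC H3K36me3, next to 20.9% for H3K4me3 of both ages with old-only H3K27me3, and they reach 4.63% for ASC H3K4me3 and 50.3% for ASC H3K27me3.

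The ASC shares of the sites moved with the choice of peaks but kept their order. When each mark's lists were cut to equal numbers of their highest-scoring peaks, ASC H3K27me3 was found at 9.39% and ASC H3K4me3 at 1.99% of the sites, by construction from a much shorter ASC H3K27me3 list. With a score of at least 100 in all lists, the shares were 39.9% (35.6% to 44.4%) and 7.69%. The other old-only H3K4me3 peaks then had 30.3% (27.8% to 33.0%) and 46.8%, so the classes were closer for ASC H3K27me3 than without the limit. When the limit of 100 was applied to the old QSC peaks alone, the share with ASC H3K27me3 was 67.3% (62.1% to 72.1%) of 333 sites, and that with H3K36me3 of young QSCs was 33.3% (28.5% to 38.6%). The 547 other old-only H3K4me3 peaks under this limit had 39.5% (35.5% to 43.6%) and 13.9% (11.2% to 17.0%).

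Taken by combination, 761 sites, 37.0% (35.0% to 39.2%), overlapped none of these 4 lists, compared with 10.5% of all old QSC H3K4me3 peaks. The other old-only H3K4me3 peaks had nearly the same share, with 875 of 2428 (34.2% to 38.0%), and old-only H3K27me3 peaks without H3K4me3 had 54.7%. These 761 sites had a median width of 827 bp. A further 686 sites (33.4%) overlapped ASC H3K27me3 alone and had a median width of 972 bp. Another 263 (12.8%) overlapped both ASC H3K27me3 and young QSC H3K36me3, with medians of 1280 bp in width and 84.4 in H3K4me3 score. H3K36me3 of young QSCs alone was found at 165 sites (8.03%). The remaining combinations held 44 sites or fewer each.

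Wider sites met young QSC H3K36me3 and ASC H3K27me3 more often. The sites were divided into 4 groups of nearly equal number at widths of 756, 926 and 1166 bp. From the narrowest to the widest group, the share with young QSC H3K36me3 was 13.0%, 18.1%, 23.1% and 44.1%. The share with ASC H3K27me3 was 32.6%, 43.2%, 54.2% and 71.3% in the same order. The share with ASC H3K4me3 was 6.01%, 5.25%, 4.31% and 2.92%, which rests on 31, 27, 22 and 15 sites, and the intervals of the first and last groups overlap (4.26% to 8.40% and 1.78% to 4.77%). At the other old-only H3K4me3 peaks in the same width ranges, ASC H3K4me3 was found at 30.2%, 38.1%, 48.0% and 52.3%. In each width range the sites had a higher share with ASC H3K27me3 than these other old-only peaks. The sites carry H3K27me3 in old QSCs by the rule, while the other old-only peaks lack old-only H3K27me3 by definition. In the widest range the shares with young QSC H3K36me3 were 44.1% (39.8% to 48.4%) and 23.6% (18.4% to 29.7%). In the narrowest range the H3K36me3 shares were close, at 13.0% (10.4% to 16.2%) and 10.7% (8.80% to 12.9%), with intervals that overlap. Against H3K4me3 peaks of both ages with old-only H3K27me3, the sites had a lower share with ASC H3K27me3 in the first 3 ranges, where that class had 58.5%, 64.0% and 68.9%. The H3K36me3 shares of that class were 17.0%, 26.5%, 18.6% and 20.9%, above those of the sites in the first 2 ranges and below them in the others.

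**Figure D3:**
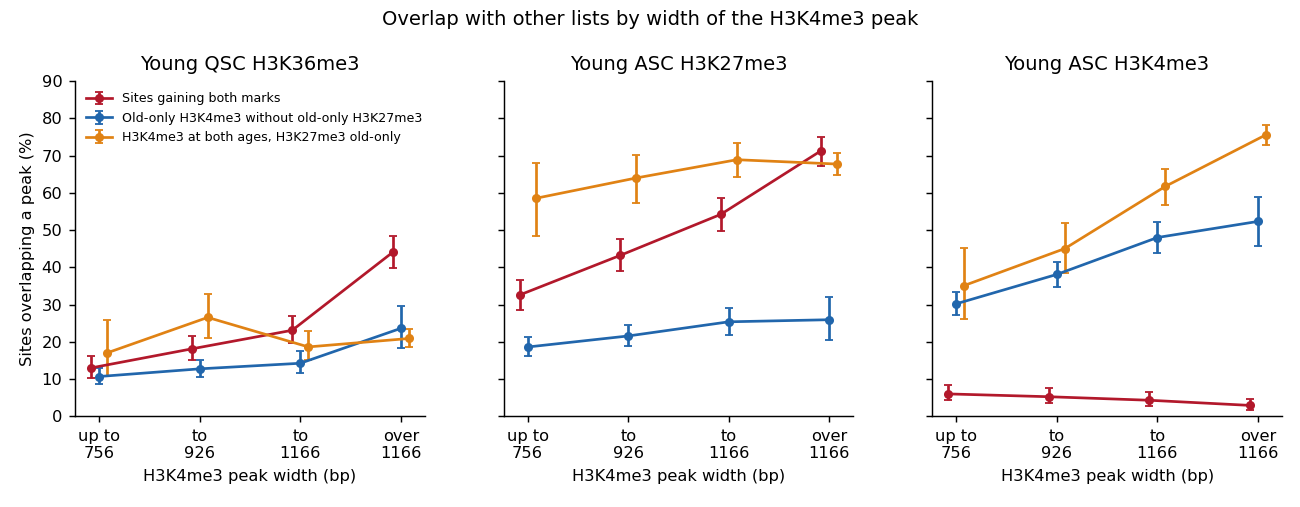
Percent of peaks overlapping young QSC H3K36me3, young ASC H3K27me3 or young ASC H3K4me3 (panels) by width of the old QSC H3K4me3 peak in bp, in 4 ranges that each hold about as many sites; points are shares and lines Wilson 95% intervals over peaks for the sites gaining both marks and 2 other classes. The line of the sites goes up from 13.0% to 44.1% and from 32.6% to 71.3% in the first panels, and lies between 6.01% and 2.92% in the last.

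H3K36me3 of young QSCs and H3K27me3 of ASCs were then compared site by site. ASC H3K27me3 was found at 58.3% (54.0% to 62.6%) of the 504 sites with H3K36me3 and at 47.7% (45.2% to 50.2%) of the 1550 without. Within the 4 width groups the pairs of shares were 35.8% and 32.1%, 40.9% and 43.7%, 55.1% and 53.9%, and 73.9% and 69.3%, with intervals that overlap in each group. A relation between these marks was not resolved within the width groups. H3K36me3 of ASCs was found at 14.1% (11.3% to 17.4%) of the sites with H3K36me3 in young QSCs and at 1.87% (1.31% to 2.67%) of those without.

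Young QSC H3K36me3, ASC H3K27me3 and ASC H3K4me3 peaks at the sites were weaker and narrower in the median than elsewhere in the same lists. The 510 young QSC H3K36me3 peaks at the sites had medians of 917 bp in width and 75.9 in score, compared with 1113 bp and 84.3 for the 19714 others. Only 14.7% (11.9% to 18.0%) of them overlapped H3K36me3 of ASCs, compared with 60.8% (60.1% to 61.4%) of the others. The 1063 ASC H3K27me3 peaks at the sites had medians of 769 bp and 89.1, compared with 872 bp and 97.5. The 95 ASC H3K4me3 peaks had medians of 629 bp and 117, compared with 1147 bp and 334.

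These peaks also lined up with the old H3K4me3 peaks, though less closely than old H3K27me3 did. H3K36me3 peaks of young QSCs and the sites' H3K4me3 peaks shared a median of 72.6% (70.4% to 74.0%) of the joint stretch, and their centres were 102 bp apart (511 pairs). For ASC H3K27me3 the shared part was 69.3% (68.1% to 70.3%) and the centres were 85.5 bp apart (1063 pairs), and the ASC peak lay inside the old H3K4me3 peak in 63.3% of the pairs. For the 95 pairs with ASC H3K4me3 these values were 64.4% and 84 bp. Where peaks of these lists met a site, their centres were thus a median of 102 bp or less from that of the old H3K4me3 peak. ASC H3K36me3 was not measured in this way.

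The sites lay far from the H3K4me3 peaks of young QSCs. The nearest one was a median of 112336 bp away (103272 to 121233), compared with 12090 bp (11185 to 13172) for the other old-only H3K4me3 peaks. Within 10 kb of a young peak were 9.49% (8.30% to 10.8%) of the sites and 46.9% (44.9% to 48.9%) of the other old-only peaks. Only 33 sites, 1.61%, came within 1 kb, and asking for no young peak of the same mark within 1 kb of either old peak left 2012 sites. To the nearest H3K27me3 peak of young QSCs the median was 461710 bp, and 9 sites came within 1 kb.

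The distance to the marks of active genes was large in ASCs too. The median distance was 123442 bp to the nearest ASC H3K4me3 peak and 338192 bp to the nearest ASC H3K36me3 peak. For the other old-only H3K4me3 peaks these medians were 2000 bp and 43328.5 bp. To the nearest H3K36me3 peak of young QSCs the medians were 95388.5 bp for the sites and 33543.5 bp for the other old-only peaks, although the sites overlapped that list more often. A site tended either to meet such a peak or to lie far from one, since 25.3% of the sites had one within 1 kb and 29.3% within 10 kb.

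**Figure D4:**
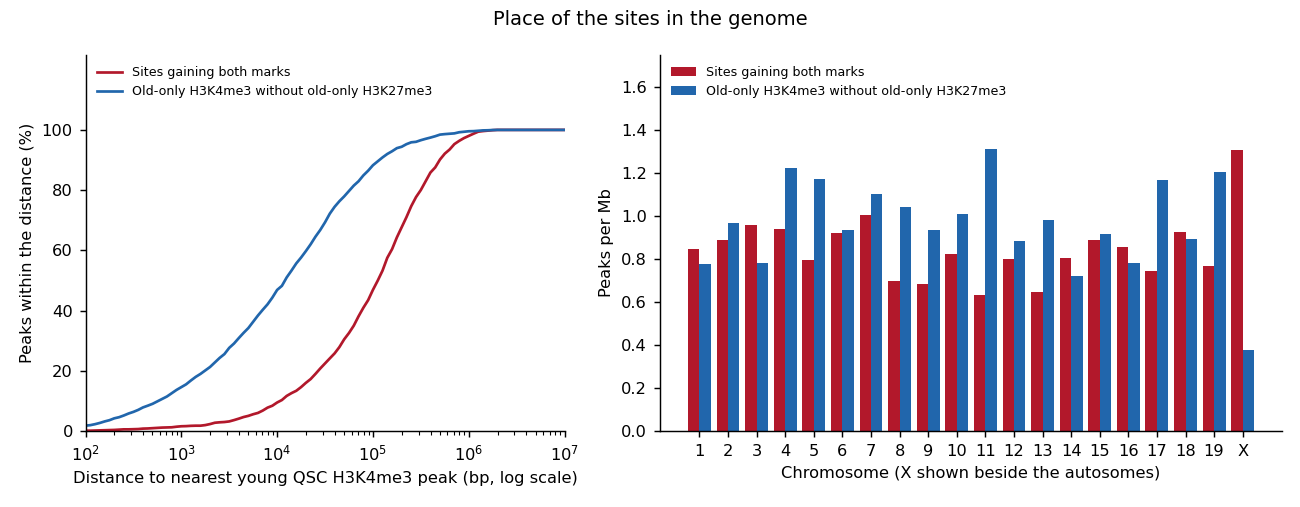
Left, cumulative percent of peaks by distance in bp (log scale) to the nearest H3K4me3 peak of young QSCs; right, peaks per Mb on each autosome and on the X chromosome, for the sites gaining both marks and the other old-only H3K4me3 peaks. The median distances are 112336 bp and 12090 bp, and the autosomes range from 0.632 to 1.00 sites per Mb.

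The sites were spread over all 19 autosomes more evenly than H3K4me3 itself. Their density ran from 0.632 per Mb on chromosome 11 to 1.00 per Mb on chromosome 7, a ratio of 1.59, with the largest position in any list taken as the length of a chromosome. All H3K4me3 peaks of old QSCs ran from 6.97 per Mb on chromosome 14 to 14.8 per Mb on chromosome 11, a ratio of 2.13, and the other old-only peaks had a ratio of 1.83. Chromosome 11, which had the most H3K4me3 peaks per Mb, had the fewest sites per Mb. There the sites were 4.26% of the H3K4me3 peaks, compared with 12.8% on chromosome 3.

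Clustering was limited. When sites with gaps of at most 50 kb were joined, 1843 sites stood alone, 90 runs held 2 sites and 8 runs held 3 or more. In all, 211 sites, 10.3% (9.03% to 11.7%), lay in runs of 2 or more, compared with 73.9% of all old QSC H3K4me3 peaks, a much denser set, and with 26.5% (24.8% to 28.3%) of the 2428 other old-only peaks. The median distance from one site to the next was 681549 bp, compared with 432893 bp for the other old-only peaks. With a gap limit of 20 kb, 4.33% of the sites lay in runs, and with 100 kb it was 20.6%. The 1688 H3K4me3 peaks of both ages with old-only H3K27me3 were nearer to the sites, with 14.1% (12.5% to 15.8%) in runs at 50 kb. At 20 kb and 100 kb they had 8.47% and 22.2%. The longest run at 50 kb held 12 peaks in that class and 7 among the other old-only peaks.

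The longest run held 8 sites within 64.8 kb at chr18:37089782-37154616. Its H3K4me3 scores lay between 55.44 and 114.8 and its H3K27me3 scores between 73.24 and 221.42. The stretch held 10 H3K4me3 and 16 H3K27me3 peaks of old QSCs, 3 H3K4me3 and 5 H3K36me3 peaks of young QSCs, and 14 H3K27me3 peaks of ASCs. No H3K27me3 of young QSCs and no H3K4me3 or H3K36me3 of ASCs was listed there. ASC H3K27me3 overlapped 7 of the 8 sites, and young QSC H3K36me3 overlapped 1. The run rested on weak peaks, since with scores of at least 100, in the old QSC lists or in all lists, the longest run of sites held 2.

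The next run held 5 sites within 54.5 kb at chr2:83770158-83824669. It had 7 H3K27me3 peaks in old QSCs and 7 in ASCs, and all 5 sites overlapped ASC H3K27me3. No peak of young QSCs was listed in it, and 1 site overlapped an ASC H3K4me3 peak. After the first, its old QSC H3K27me3 peaks were nearly evenly spaced, with starts at 24.6, 30.5, 36.2, 42.0, 48.0 and 53.6 kb. The ASC H3K27me3 peaks from 24.9 to 53.7 kb were spaced alike. The reason for this spacing was not tested, so the sites of this run may not be independent places. Among the runs of 3 sites, which were tied, the shortest spanned 21.7 kb at chr2:80651575-80673226. An H3K27me3 peak of score 443.01 there covered 2 of the 3 sites, and ASC H3K27me3 overlapped 2 of them.

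**Figure D5:**
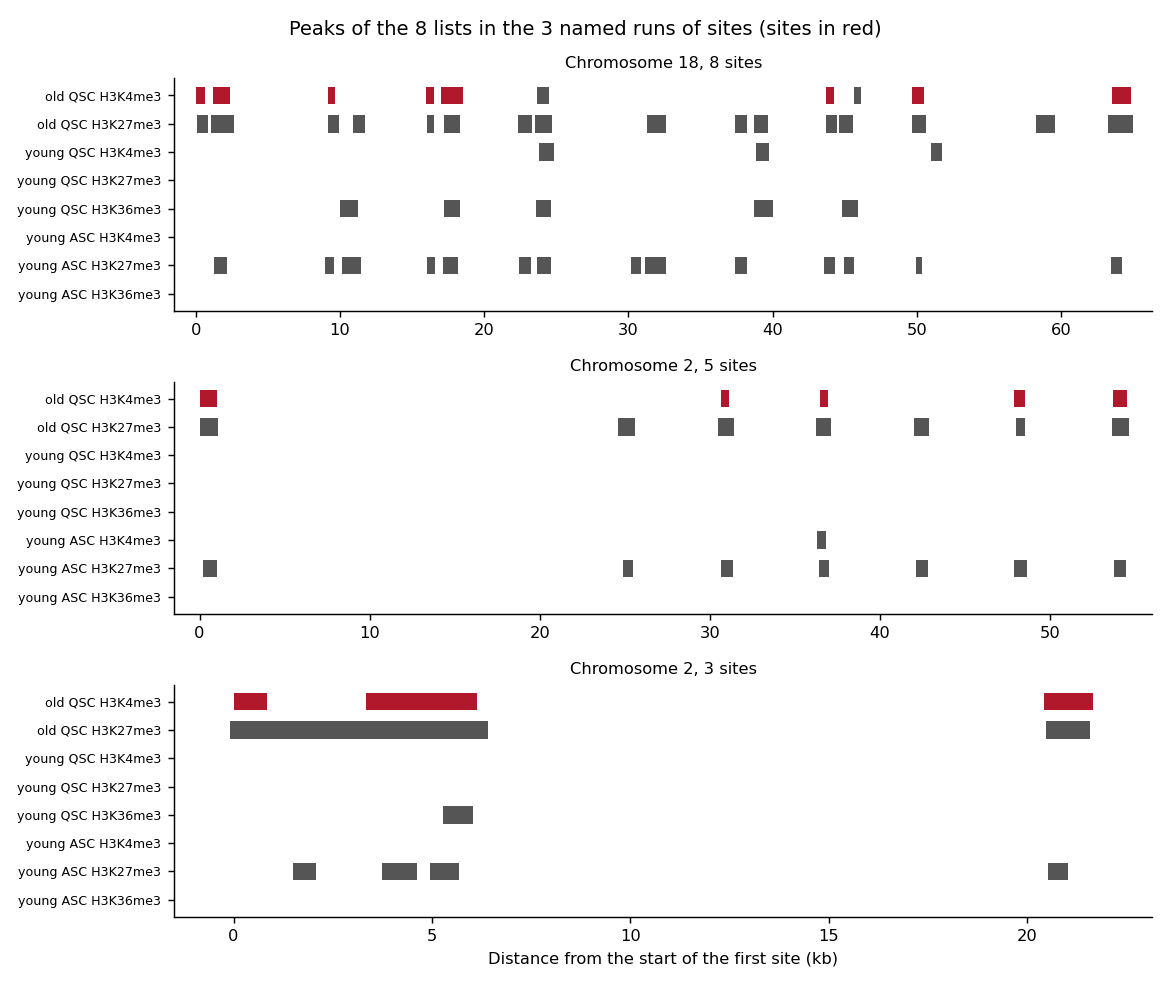
Peaks of the 8 lists in 3 runs of sites, drawn as blocks by distance in kb from the start of the first site, with old QSC H3K4me3 peaks that are sites in red and all other peaks in grey. In the runs of 8 and 5 sites the old QSC H3K27me3 and ASC H3K27me3 blocks (16 and 14, and 7 and 7) sit mostly at matching places, and the young QSC H3K27me3 row is empty in all 3.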

How the data were processed

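The authors deposited 1 list of peaks per ChIP library, each peak with a position and a score. Peak names and values are those of MACS, whose version is not given in the sources used here. The submitters' processing notes name Bowtie and the mm9 assembly. Sequencing depth is unknown, and the 3 input libraries were not analysed here on their own. The deposited score served for describing, ranking and filtering peaks, and the scores of a pair, which come from different lists, were compared only to say which was higher and to pick the strongest sites. Starts are printed 1-based.

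Sites, classes, shared bases, edge distances and runs were computed in Python 3.11.15 (numpy 2.4.6, pandas 2.3.3). Wilson 95% intervals came from scipy 1.17.1, intervals of medians from binomial order statistics, and figures from matplotlib 3.10.9. Overlap functions were tested on simulated data and checked against bedtools 2.31.1. Centre distances and shares were computed per pair of overlapping peaks, shares of sites per site.

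Sites, classes and alternatives were chosen with earlier results of these data known. The regions named were the 5 sites with the highest lower score of the pair, the 3 with the most and the 3 with the fewest shared bases, the 3 nearest peaks outside the rule, and the 3 longest runs (ties to the shorter). Alternatives were a score of at least 100 in the old or in all lists, lists of a mark cut to equal numbers of their highest-scoring peaks, an overlap of 50% of the shorter peak, merging of peaks less than 1 kb apart, no young peak within 1 kb, all chromosomes, gaps of 20 kb and 100 kb, and peaks under 1.5 kb. The gene and promoter tables at hand are of assembly GRCm38.p6, so no gene was named, no sequence was printed and no coordinate was converted.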

Additional observations from a re-analysis of the deposited data

How the results depend on the processing

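Of 64 alternative values, 48 stayed close to the reported ones and 16 moved. A count or longest run was called close within 1.5 times the reported one, and a share or median within the 95% interval of the reported one. The share of the shorter peak that the pair shared and the distance between centres stayed close under every alternative run, at 99.4% to 99.9% and 61 to 64 bp. With a score of at least 100 in the old QSC lists, 333 sites were left, 33.3% of them overlapped young QSC H3K36me3, 67.3% overlapped ASC H3K27me3, and the longest run held 2 sites. With that limit in all lists there were 481 sites, with shares of 9.36% for young QSC H3K36me3, 7.69% for ASC H3K4me3, 39.9% for ASC H3K27me3 and 5.41% for both ASC marks, and a longest run of 2. With equal numbers of top-scoring peaks per mark, 1.99%, 9.39% and 0.722% overlapped ASC H3K4me3, ASC H3K27me3 and both, from shorter ASC lists by construction. With both peaks narrower than 1.5 kb, an alternative added after seeing the data, young QSC H3K36me3 overlapped 20.7% and ASC H3K27me3 46.4%. With gaps of at most 20 kb the longest run held 5 sites. Why the H3K36me3 share went up with one score limit and down with the other was not tested, but the second also removed H3K36me3 peaks. It removed weaker young QSC peaks of the rule as well, so its sites include places with a listed young peak. No paired analysis was possible because each cell state and mark had 1 library. With unknown depth, a peak missing from a list may lie under the limit of the peak caller. In particular, absence from the young lists, which defines the sites, is absence at the authors' threshold.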

Other observations

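The sex chromosomes held 223 further places that met the same rule, out of 2277 on all chromosomes. On the X chromosome, present in 1 copy in these male mice, there were 218 such places, or 1.31 per Mb, above the highest autosomal density of 1.00 per Mb. They made up 77.6% (95% interval 72.4% to 82.1%) of the 281 old-only H3K4me3 peaks of the X chromosome, compared with a range from 32.5% on chromosome 11 to 55.0% on chromosome 3. The other old-only H3K4me3 peaks were sparse there, at 0.378 per Mb, compared with at least 0.719 per Mb on the autosomes.

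The pairs of peaks on the X chromosome were built like the autosomal ones. Their median H3K4me3 width was 978.5 bp, and the shared part of the joint stretch was 83.0% (81.5% to 85.5%). H3K27me3 of young ASCs overlapped 92 of the 218 (42.2%, 35.8% to 48.8%), H3K36me3 of young QSCs 39 (17.9%, 13.4% to 23.5%) and H3K4me3 of ASCs 5 (2.29%, 0.984% to 5.26%). X-linked peaks were 0.848% of the young QSC H3K36me3 list and 1.26% of the ASC H3K27me3 list.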
